A study of Mus musculus with 6 samples.

Results

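The bile duct and progenitor cell markers comprised 9 genes, Krt7, Krt19, Krt8, Krt18, Epcam, Sox9, Spp1, Cftr and Cd24a. They were listed by name, with earlier results of these data known. A probe set, the group of short probes that measures a transcript on an Affymetrix array, was counted as a member when the array annotation gave it to exactly 1 of these genes. By this rule 16 of 45037 probe sets were members, and they measured 8 of the 9 genes. Spp1, the secreted protein osteopontin, was listed for no probe set and is given no value. Of 18193 genes measured, these 8 were compared between the livers of A/J-12SM mice, a consomic strain that carries chromosome 12 of SM/J on the A/J background, and A/J mice. Mice of both strains were males given a high-fat diet for 7 weeks. RNA from 3 mice was pooled for each array, and 3 arrays were measured per strain, so the spread between replicates is that between pools of mice. None of the 9 genes lies on the substituted chromosome (0 of 9, RefSeq annotation of GRCm38.p6).

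Bile ducts are lined by cholangiocytes, epithelial cells that modify bile with chloride, bicarbonate and water. They make up a small part of the liver, whose bulk is hepatocytes, and they share a keratin cytoskeleton and surface proteins with the bipotent progenitor cells that appear around the portal tracts in the ductular reaction. Keratins assemble as pairs of a type I and a type II chain: hepatocytes contain only the pair of Krt8 (type II) and Krt18 (type I), while cholangiocytes add Krt7 (type II) and Krt19 (type I). In whole liver, fewer duct cells and less of a marker's RNA per duct cell cannot be told apart.

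The deposited MAS5 signals were not at 1 level, with trimmed means of 170.5 to 185.8 in A/J-12SM and 200.5 to 213.2 in A/J arrays, and their log2 values were therefore quantile normalized. Values below are normalized log2 signals, and differences are A/J-12SM minus A/J on the log2 scale. In the values as deposited the median difference of all probe sets was -0.22. The ratio of 5′ to 3′ actin signal, a sign of RNA integrity, was 0.423 in A/J-12SM replicate 3 and 0.5527 to 0.5904 in the other 5 arrays. The same ratio for Gapdh was 1.534 in A/J-12SM replicate 3, within the 1.454 to 1.546 of the other arrays. All 14 measured hepatocyte markers were bright, at the 82.1 percentile of all probe sets or above. The strains were compared by limma, with p-values adjusted over the whole array (Benjamini-Hochberg) and 0.05 as the threshold of a call. Of the 16 members 0 were called, against 25 of all probe sets, which is 0.0555%. At an unadjusted p under 0.05 there were 2 members, 1 of Krt7 and 1 of Cftr, against 6.23% of all probe sets. Counted by the brightest probe set of each gene, 0 of 8 member genes were called, against 0.066% of all genes, and 1 had an unadjusted p under 0.05, against 6.78%.

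Krt8 and Krt18, the keratins of hepatocytes and duct cells alike, had the smallest errors of the members, and their levels were close in both strains. The 3 probe sets of Krt8 and the probe set of Krt18 lay at the 95.6 to 96 percentile of brightness. The genes are near each other on chromosome 15, which also carries Krt7, and the 250 bases before the start of each are shown, since the 3 keratins share a chromosome. They were read from the RefSeq promoter windows of GRCm38.p6 and are printed 5′ to 3′ on the strand of the gene, with CpG dinucleotides in capitals.
Krt8, chr15:102004343-102004592, minus strand: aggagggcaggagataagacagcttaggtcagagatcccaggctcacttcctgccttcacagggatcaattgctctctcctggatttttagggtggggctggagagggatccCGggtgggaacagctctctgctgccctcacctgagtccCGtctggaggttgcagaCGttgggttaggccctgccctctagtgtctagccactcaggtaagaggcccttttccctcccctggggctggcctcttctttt
Krt18, chr15:102027966-102028215, plus strand: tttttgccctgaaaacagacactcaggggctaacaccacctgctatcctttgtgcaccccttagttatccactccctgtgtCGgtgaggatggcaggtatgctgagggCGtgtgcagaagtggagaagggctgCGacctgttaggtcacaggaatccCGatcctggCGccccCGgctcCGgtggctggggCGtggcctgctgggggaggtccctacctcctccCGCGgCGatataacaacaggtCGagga
Krt7, chr15:101412153-101412402, plus strand: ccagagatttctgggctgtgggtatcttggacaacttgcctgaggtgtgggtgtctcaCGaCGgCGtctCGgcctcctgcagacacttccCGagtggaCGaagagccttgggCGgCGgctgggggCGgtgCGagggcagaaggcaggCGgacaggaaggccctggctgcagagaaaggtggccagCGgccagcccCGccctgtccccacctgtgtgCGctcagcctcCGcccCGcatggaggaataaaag
The Krt8 window holds 3 CpG, the Krt18 window 12 and the Krt7 window 16, and the median over 32851 windows of this length is 6. The GC box letters GGGCGG, searched on both strands, are found 4 times in the Krt7 window and 0 times in those of Krt8 and Krt18. Of all windows 32.7% hold them, and a match is a description of the sequence only. Windows were found for 6 of the 9 genes.

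Krt18 had 10.62, 10.84 and 10.65 in A/J-12SM arrays, against 10.76, 10.71 and 10.82 in A/J arrays. The strains overlapped, since A/J-12SM replicate 2 was the highest array of all 6. The means were 10.70 ± 0.12 in A/J-12SM and 10.76 ± 0.05 in A/J liver (SD, n = 3 each), a difference of -0.06 (SE 0.09, adjusted p = 0.936 from limma). The 95% interval of the ratio was 0.836 to 1.1. By its brightest probe set Krt8 had 10.46, 10.80 and 10.50 in A/J-12SM arrays and 10.75, 10.73 and 10.82 in A/J arrays. Replicates 1 and 3 of A/J-12SM lay below all A/J arrays, and replicate 2 lay among them. Krt8 averaged 10.59 ± 0.18 in A/J-12SM and 10.77 ± 0.05 in A/J liver (SD, n = 3 each), a difference of -0.18 (SE 0.10, adjusted p = 0.833 from limma) and a ratio of 0.883 with an interval of 0.753 to 1.04. The other Krt8 probe sets, whose names mark them as holding probes that may bind other sequences, gave -0.22 and -0.18. In all 4 probe sets of the pair A/J-12SM replicate 2 was the highest array of its strain. Without it, Krt8 had a difference of -0.29 (adjusted p = 0.617 from limma), and without A/J-12SM replicate 1 one of -0.12.

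The keratins that mark duct cells, Krt7 and Krt19, had dim probe sets and differences of opposite sign. Krt7 had 0.34, 2.44 and 1.75 in A/J-12SM arrays, against 4.07, 2.29 and 4.83 in A/J arrays. A/J replicate 2 lay below A/J-12SM replicate 2, so the strains overlapped. The difference of -2.22 (SE 0.90) was the most negative among the members and was not called (adjusted p = 0.782 from limma). In a two-sided exact permutation test its p was 0.2, and 3 arrays against 3 cannot give less than 0.1. The probe set lay at the 14.7 percentile of brightness. Its deposited signals were 1.08, 5.6 and 3 in A/J-12SM and 18.7, 6.14 and 27.1 in A/J liver. Deposited signals were lower in A/J-12SM arrays over all probe sets, with a median log2 difference of -0.22. After 9.2 was added to every signal, which shrinks differences among dim values, the difference was -0.95. Krt19 had 4.38, 4.92 and 5.01 in A/J-12SM arrays and 4.73, 4.70 and 3.69 in A/J arrays. Here A/J replicate 3 was the lowest and the other arrays overlapped. Krt19 was the only member gene with a higher value by its brightest probe set, at 0.39 (SE 0.46, adjusted p = 0.917 from limma), and its ratio of 1.31 had an interval of 0.643 to 2.69. Without A/J replicate 3 the difference was 0.05.

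**Figure D1:**
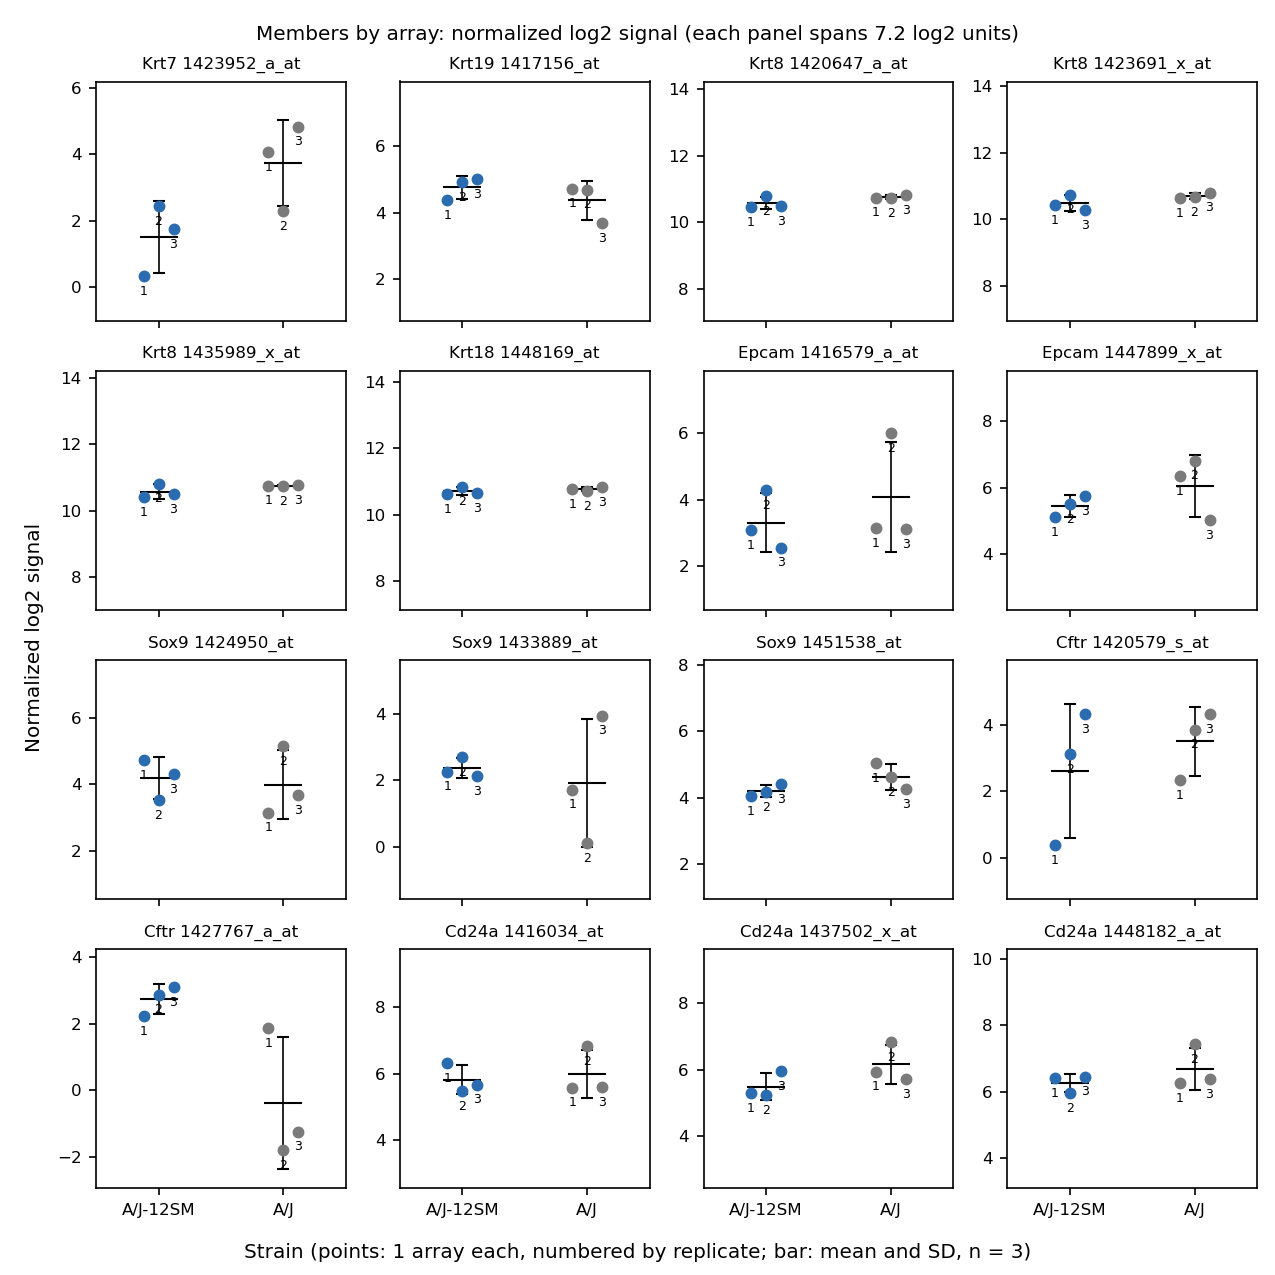
The 16 member probe sets, with normalized log2 signal on the y axis, in each A/J-12SM (blue) and A/J array (grey); points are single arrays, numbered by replicate, and bars are means and SDs of 3 arrays. Krt8 and Krt18 lie within narrow ranges in both strains, while Krt7, both Cftr probe sets, the dimmest of Sox9 and the dimmer of Epcam spread over several log2 units.

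Epcam and Cd24a, surface proteins of duct and progenitor cells, had lower values in A/J-12SM liver by all 5 of their probe sets, and A/J replicate 2 was the highest array in each of these. Epcam, a cell adhesion molecule of simple epithelia, had 5.10, 5.51 and 5.75 in A/J-12SM arrays by its brightest probe set, against 6.34, 6.81 and 5.02 in A/J arrays. The name of this probe set marks it as holding probes that may bind other sequences. A/J replicate 3 was the lowest array and the other A/J arrays were the highest, so the strains overlapped. The difference was -0.60 (SE 0.43, adjusted p = 0.865 from limma), and the dimmer probe set, at the 27.2 percentile, gave -0.78 (SE 0.87). In that one A/J replicate 2 was the highest array, and the other 5 lay at 2.55 to 4.28.

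Cd24a, a small mucin-like protein anchored to the membrane, is also carried by immature lymphocytes and other blood cells. By its brightest probe set it had 6.40, 5.96 and 6.45 in A/J-12SM arrays and 6.26, 7.42 and 6.37 in A/J arrays. Apart from A/J replicate 2, all arrays lay between 5.96 and 6.45. The difference was -0.41 (SE 0.31, adjusted p = 0.867 from limma), and the others gave -0.67 (SE 0.35) and -0.18 (SE 0.38). The probe set with -0.67 is marked by its name as holding probes that may bind other sequences. A/J replicate 2 was the highest of 6 arrays in all 3 Cd24a probe sets and in both of Epcam. It was also the highest array in the mean level of 9 lymphocyte markers (0.41, log2 values centred gene by gene, against -0.35 to 0.23 in the others) and of 7 neutrophil markers (0.47, against -0.53 to 0.18). The same array was the highest in the adipocyte markers (0.73) and the other bile duct genes (0.10). It was so by little in the macrophage (0.23, next 0.22) and endothelial markers (0.06, next 0.04). It was the lowest array in the hepatocyte markers (-0.09) and the Notch, Hippo and TGF-beta genes (-0.10). In the stellate, erythroid, mesothelial, exocrine pancreas and lipid-associated macrophage markers it was not the highest. Nor was it in the keratin-binding, osteopontin receptor and chloride secretion genes. The part of other cells in the Cd24a and Epcam values was not tested. Without A/J replicate 2 the differences were -0.23 for Epcam and -0.05 for Cd24a. Without A/J replicate 3 Epcam was -1.10 (adjusted p = 0.637 from limma), and without A/J replicate 1 Cd24a was -0.63 (adjusted p = 0.987 from limma).

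Sox9, the transcription factor of duct cells and progenitors, and Cftr, the chloride channel of the duct cell's apical membrane, were dim, and their probe sets differed in sign. Sox9 had 4.05, 4.16 and 4.40 in A/J-12SM arrays by its brightest probe set, against 5.03, 4.61 and 4.25 in A/J arrays. A/J replicate 3 lay within the A/J-12SM range. The difference was -0.43 (SE 0.44, adjusted p = 0.902 from limma), and the other Sox9 probe sets gave 0.20 (SE 0.64) and 0.44 (SE 0.99). Without A/J replicate 1 the brightest gave -0.23. Cftr had 0.37, 3.12 and 4.31 in A/J-12SM arrays and 2.33, 3.85 and 4.32 in A/J arrays by its brighter probe set, which is marked as shared with other transcripts. Its lowest value was in A/J-12SM replicate 1. The difference was -0.90 (SE 1.03, adjusted p = 0.915 from limma), and 0.21 without that array.

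The other Cftr probe set had 2.24, 2.88 and 3.10 in A/J-12SM arrays and 1.88, -1.80 and -1.24 in A/J arrays. It was the only member without overlap between the strains (1 of 16, against 12% of all probe sets), with p = 0.1 by the exact permutation test. Its difference of 3.12 (SE 1.03, adjusted p = 0.678 from limma) had a 95% interval of 0.81 to 5.44. This probe set was at the 3.34 percentile of brightness, with deposited signals of 4.04, 7.49 and 7.73 in A/J-12SM and 4.1, 0.326 and 0.37 in A/J liver. In the deposited signals A/J replicate 1 lay above A/J-12SM replicate 1, so there the strains overlapped.

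**Figure D2:**
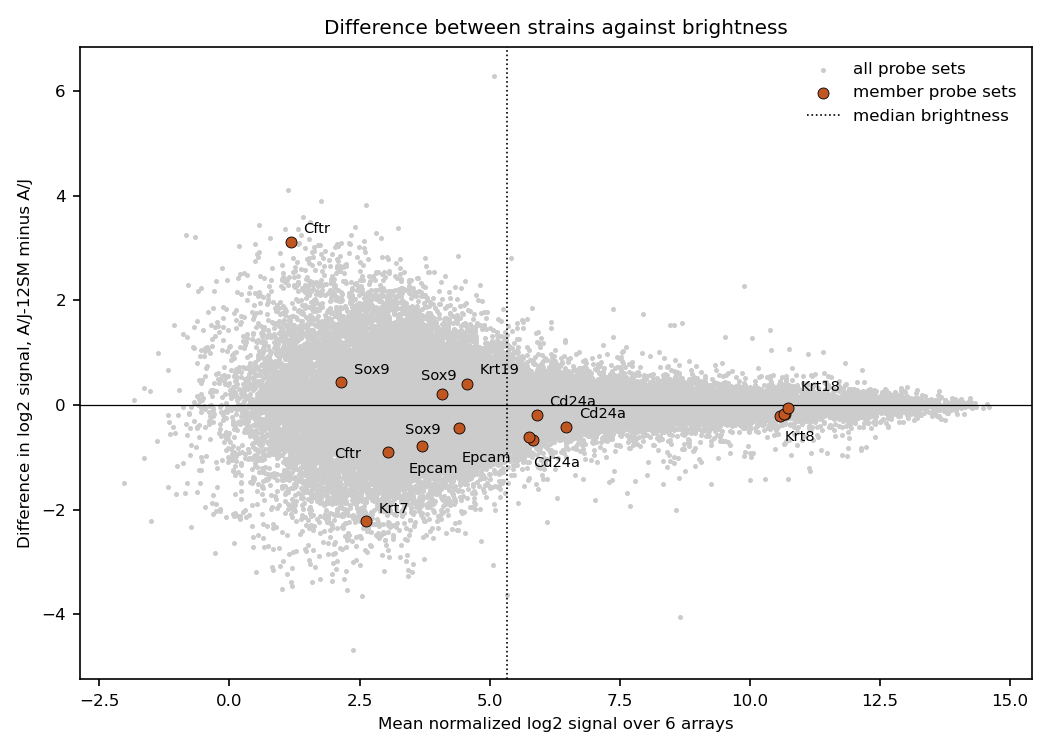
Difference in log2 signal (y axis, A/J-12SM minus A/J) against the mean log2 signal over 6 arrays (x axis) for all 45037 probe sets (grey) and the 16 members (orange); the dotted line is the median brightness of 5.33. The members with the widest differences, Cftr at 3.12 and Krt7 at -2.22, lie where all probe sets spread widely.

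By the brightest probe set, 7 of 8 member genes had lower values in A/J-12SM liver, with a median of -0.42. The members were chosen with earlier results of these data known, and this count was not planned. Of all genes 50.9% had lower values, and their median was -0.01. The 4 genes at or above the median brightness (Krt8, Krt18, Epcam and Cd24a) had a median of -0.30, and the 4 dimmer ones (Krt7, Krt19, Sox9 and Cftr) one of -0.67. Epcam was among the brighter genes by a probe set that may bind other sequences, and its other probe set lay at the 27.2 percentile. The median SD between replicate arrays was 0.86 among probe sets dimmer than the median and 0.21 among the rest. The median of the members was -0.24 without A/J-12SM replicate 1 and -0.21 without A/J replicate 2. It was -0.13 with the mean of all probe sets of a gene in place of the brightest, where 5 genes had lower values. Counted over all 16 probe sets, which are not independent where they measure 1 gene, 12 had lower and 4 had higher values. The mean level of the 8 genes was -0.82, -0.07 and 0.06 in A/J-12SM arrays, against 0.25, 0.35 and 0.23 in A/J arrays. A/J-12SM replicate 1 was the lowest array in 6 of 16 probe sets and the highest in 0, and its dim members averaged -1.38. Over the 4 brighter genes the strains overlapped, with -0.26, -0.13 and -0.07 in A/J-12SM arrays and 0.12, 0.51 and -0.15 in A/J arrays.

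**Figure D3:**
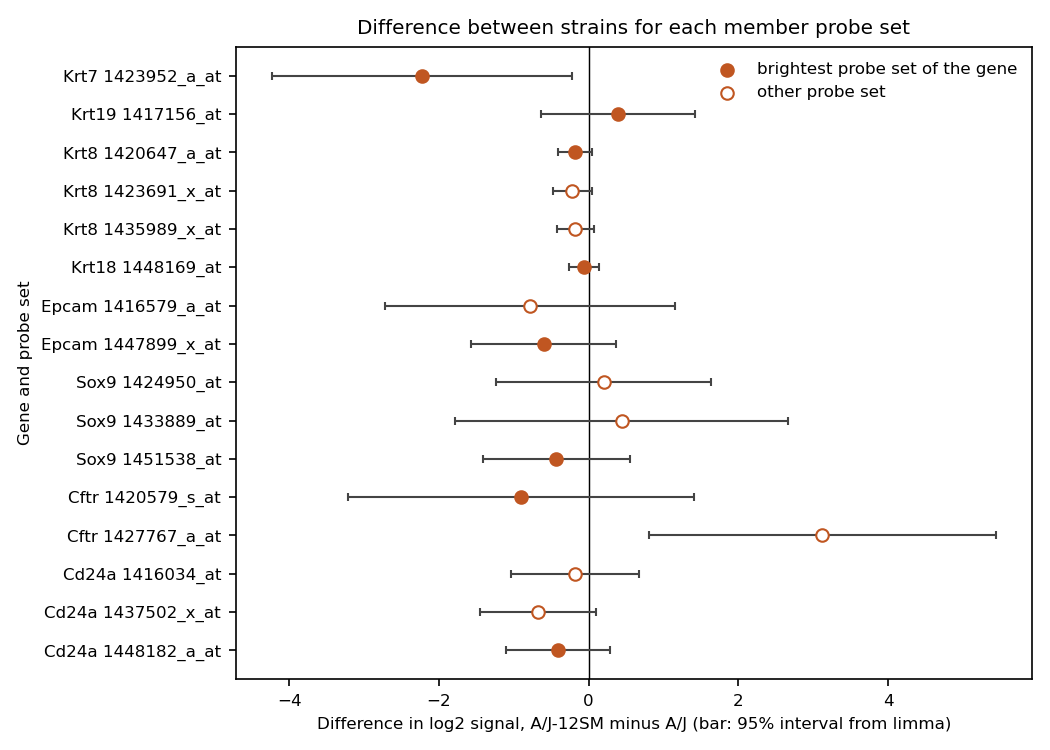
Difference in log2 signal (x axis, A/J-12SM minus A/J) with its 95% interval from limma for each member probe set (y axis); filled points are the brightest probe set of a gene. The intervals of Krt7 and of 1 Cftr probe set leave out 0 before adjustment, on opposite sides, and those of Krt8 and Krt18 are the narrowest.

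Other genes of bile duct epithelium had values in both directions. Of 29 listed, 24 were measured, 10 with lower and 14 with higher values and a median of 0.05, and 0 were called. Wfdc2, a secreted protease inhibitor of epithelia, had 7.73, 7.06 and 7.35 in A/J-12SM arrays and 7.97, 8.24 and 8.20 in A/J arrays. Its strains did not overlap, as in 12% of all probe sets, and its difference was -0.76 (SE 0.18, adjusted p = 0.432 from limma). Krt23, a type I keratin, had 0.63 (SE 0.31) with overlap between the strains. Of 14 measured progenitor, fetal and ductular reaction genes, 6 had lower and 8 higher values with a median of 0.05, and 0 were called. Itga6, an integrin chain that binds laminin, had 0.66 (SE 0.37), and Lgr5, a receptor of R-spondin, had -0.25 (SE 0.21).

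The signals that direct bile duct fate, Notch, Hippo and TGF-beta, were measured by 18 genes, 8 with lower and 10 with higher values and a median of 0.02. None was called (0 of 18 by limma, 1 at an unadjusted p under 0.05, against 6.78% of all genes). Ccn1, also called Cyr61, is a secreted protein induced by the Hippo effector Yap1. It had 7.00, 6.97 and 6.92 in A/J-12SM arrays and 7.78, 7.38 and 7.32 in A/J arrays. The strains did not overlap, as in 12% of all probe sets, and the difference was -0.53 (SE 0.16, adjusted p = 0.623 from limma). The name of this Ccn1 probe set marks it as holding probes that may bind other sequences. Notch2, the Notch receptor needed for duct formation, had 0.33 (SE 0.16). Of 9 proteins that bind keratins or build junctions, 3 had lower and 6 higher values (median 0.04), and 0 were called. Plec, the linker plectin, had 0.42 (SE 0.13, adjusted p = 0.619 from limma), and Hspb1, a small heat shock protein, had 0.46 (SE 0.18, adjusted p = 0.764 from limma), in each case without overlap. The Plec probe set is marked by its name as shared with other transcripts. The 7 receptor genes of osteopontin had a median of 0.04 and 0 calls, with the integrin chains Itga9 at 0.17 (SE 0.20) and Itgb5 at -0.11 (SE 0.12). Of 10 genes of chloride and bicarbonate secretion, 5 had lower and 5 higher values, and 0 were called. Adcy9, an adenylyl cyclase, had 0.31 (SE 0.09, adjusted p = 0.602 from limma), also without overlap. Slc4a2, the anion exchanger that releases bicarbonate, had 0.08 (SE 0.16).

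Markers of other cells that carry the same proteins were compared in the same way, and 0 of them were called. Mesothelial cells contain Krt7, Krt8, Krt18 and Krt19, and the mean level of 7 of their markers was -0.54, -0.09 and 0.58 in A/J-12SM and 0.01, 0.16 and -0.11 in A/J arrays, with a median difference of 0.25. A/J-12SM arrays were both the lowest and the highest of these, and 6 of the markers were below the median brightness. Pancreatic ducts carry Krt7, Krt19, Sox9 and Cftr. The 8 measured markers of the exocrine pancreas are genes of its enzyme-secreting cells and not of its ducts. Their mean level ranged from -0.20 to 0.23 in A/J-12SM and from -0.40 to 0.48 in A/J arrays. Of the 8, 5 were below the median brightness. Hepatocyte markers had a median difference of 0.03, with 6 lower and 8 higher. Of the 14, all bright, 4 were without overlap by the brightest probe set, against 12% of all probe sets, dim ones included. The share among bright probe sets alone was not computed. At an unadjusted p under 0.05 there were 2, against 6.78% of all genes. The mean level of the hepatocyte markers was 0.06, 0.01 and 0.08 in A/J-12SM arrays, and all A/J arrays were lower, down to -0.09. The part of these cells in the values of the members was not tested.

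**Figure D4:**
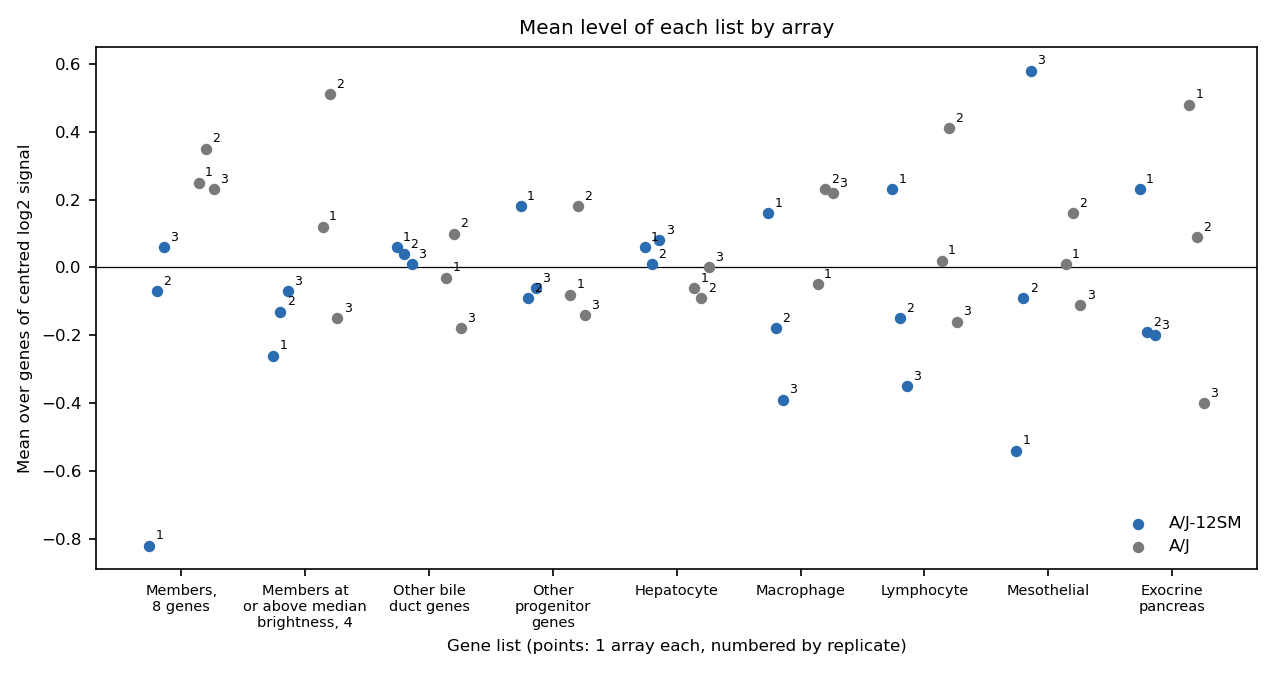
Mean over genes of log2 signals centred on each gene's mean over 6 arrays (y axis) for the members and 7 other gene lists (x axis) in A/J-12SM (blue) and A/J arrays (grey), each point 1 array with its replicate number. A/J-12SM replicate 1 lies at -0.82 over the 8 members, and A/J replicate 2 at 0.51 over the 4 brighter ones and at 0.41 in the lymphocyte list.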

How the data were processed

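Each of 6 Affymetrix arrays, 3 per strain and all used, held labelled liver RNA in a single colour. The authors deposited linear intensity values, 1 for each probe set of an array, and per the submitters' processing notes these came from MAS5, which corrects background and summarises the probes of a set. The sources used here do not state its version or scaling, and array levels differed, which can move every difference. After 64 control probe sets were left out, log2 values were quantile normalized, which would remove a true overall difference, and fitted with limma 3.58.1 in R 4.3.3 (trend on brightness, no covariates). Genes were named from the platform annotation: 34945 probe sets carry 1 gene, 932 several and 9160 none listed. The brightest probe set over all arrays stood for a gene. Plots used matplotlib 3.10.9 (Python 3.11.15). The members and gene lists were chosen with earlier results of these data known. Named were all members and, in each related list without a call, the 2 genes with the largest difference at or above the median brightness. In simulated data, where 200 of 45037 probe sets were changed, limma recovered 6.4% of changes of 0.5, 53.8% of 1 and 96.8% of 2 on the log2 scale among brighter probe sets, and 4.79% of calls were false. No recovery was estimated for probe sets below the median brightness, which include those of Krt7, Krt19, Sox9 and Cftr. The number of arrays limits the precision. Per the series' design each array held a pool of 3 mice, so p-values measure the spread between pools, not between single mice. Alternatives were other scalings, an offset of 9.2 (20th percentile of the signals), leaving out probe sets under the 40th percentile, 1 prior variance, a t-test per probe set, the replicate number as a block, the mean of a gene's probe sets and leaving out each array.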

Additional observations from a re-analysis of the deposited data

How the results depend on the processing

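No member probe set was called under any alternative run (0 of 16 each time, or of the 8 that remained without dim probe sets), and of 85 recomputed differences of single member genes that an alternative could move, 82 kept their direction. The alternatives reuse the same arrays, so these 85 are not independent of each other or of the main result. With the mean of all probe sets of a gene Sox9 was 0.07 and Cftr 1.11, since the other probe sets had the opposite sign, and with single arrays left out Cftr was between -1.76 and 0.21, its only positive value without A/J-12SM replicate 1. The median of the members was -0.65 with the values as deposited (-0.22 over all probe sets), -0.29 with an offset, -0.30 without dim probe sets (the 4 genes left all had lower values), -0.13 with the mean of all probe sets, and between -0.52 and -0.21 with single arrays left out. With single arrays left out, 6 to 7 of 8 genes had lower values, a count chosen after seeing the data. With the values as deposited 7 of 16 member probe sets had an unadjusted p under 0.05, against 13.2% of all probe sets, among them those of Krt8 (-0.37) and Krt18 (-0.25), and without A/J-12SM replicate 2 there were 5, against 6.98%, among them the 3 of Krt8. Over the whole array 47 probe sets were called with the values as deposited (9 higher and 38 lower, against 11 and 14), 1 with 1 prior variance and 1 by a t-test per probe set after adjustment (2630 at an unadjusted p under 0.05, among them 0 members). With single arrays left out there were between 6 and 23 calls: 16 and 14 without A/J-12SM replicate 1 and 2, and 14, 6 and 11 without A/J replicate 1, 2 and 3. In a fit blocked on replicate number, which leaves the differences as they are, 28 probe sets were called and no member was. Deviations of same-numbered arrays from their strain means correlated at -0.057, 0.089 and 0.156, and those of other pairs at -0.227 to 0.148. Not every array correlated best with its own number. With 3 arrays per strain these values cannot decide whether the number pairs the arrays. Dim members limit the comparison: no detection calls were used, and Krt7, Krt19, Sox9 and Cftr lay under the filter on dim probe sets.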

Other observations

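Other cells of the liver were described by further marker lists, none of which holds a member. Of 10 Kupffer cell and macrophage markers 9 had lower values in A/J-12SM liver (median -0.24), and their mean level was -0.39 to 0.16 in A/J-12SM and -0.05 to 0.23 in A/J arrays. Of 5 markers of lipid-associated macrophages, cells that also make osteopontin, 3 had lower values (median -0.27). Stellate cell and fibroblast markers had 3 lower and 9 higher values (median 0.03), and endothelial markers 5 lower and 2 higher (median -0.02). Lymphocyte markers had 4 lower and 5 higher, neutrophil markers 5 lower and 2 higher (median -0.20), erythroid markers 2 lower and 2 higher (median -0.06), and adipocyte markers 2 lower and 1 higher (median -0.33). By limma 0 genes of these lists were called. At an unadjusted p under 0.05 there were 2 stellate, 1 macrophage and 1 erythroid marker, and 0 in the other lists of this paragraph. By the brightest probe set 12 of all genes, 0.066%, were called, and 6.78% had an unadjusted p under 0.05.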
